A study of Mus musculus with 2 samples.

Results

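Transcripts of 8 genes of fatty acid oxidation, Ppara, Cpt1a, Cpt2, Acadm, Acadl, Acadvl, Hadha and Ehhadh, were measured in single cells of the fetal mouse intestine. The genes were chosen by name, 8 of the 25663 genes in the deposited table, and every one of them had signal. The cells were sorted small intestine epithelium of embryos at E18.5, in 1 Control library (wild type) and 1 Tet3 knockout library, each pooling cells of 2 embryos. In the knockout, a constitutive deletion made in embryonic stem cells took out Tet3 exon 5, so it is not limited to the intestine, and the line, labelled C57BL6/J, was bred towards a C57BL6/JRccHsd background. Tet3 oxidises methylated cytosine in DNA, and the title of the study asks how it bears on terminal differentiation through metabolism. No label ties a cell to a library, so cells are given by the ending of their barcode, as set 0 and set 1, with no genotype.

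Fatty acids enter mitochondria as carnitine esters, and their oxidation shortens them by repeated rounds of dehydrogenation, hydration, a second dehydrogenation and thiolysis. Ppara is the nuclear receptor that binds fatty acids and switches on genes of this pathway in liver and gut. Cpt1a and Cpt2 are the outer and inner membrane carnitine palmitoyltransferases. Acadvl, Acadl and Acadm are the acyl-CoA dehydrogenases for very long, long and medium chains. Hadha is the alpha subunit of the mitochondrial trifunctional protein, and Ehhadh is the bifunctional enzyme of peroxisomes. Enterocytes of the suckling gut also make ketone bodies from the acetyl-CoA that results. None of the 8 genes is itself an enzyme of ketone synthesis, so genes of that route, such as Bdh1 and Acat1, are described from a separate list.

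In GRCm38 the genes lie on separate chromosomes: Ppara at chr15:85734983-85802819, Cpt1a at chr19:3322334-3385733, Cpt2 at chr4:107903981-107923610, Acadm at chr3:153922357-153944632, Acadl at chr1:66830839-66863277, Acadvl at chr11:70010183-70015411, Hadha at chr5:30118304-30155162 and Ehhadh at chr16:21761287-21787807. Acadvl overlaps Dvl2 and Mir324, and Hadha overlaps Garem2, on the other strand. Ehhadh overlaps Gm24898 on the other strand, and Acadl overlaps Gm15793 on its own strand and Gm27934 on the other. The strand setting of the counting is not given in the sources used here, so reads of these partners may not be told apart. Hadhb, the beta subunit, starts 85 bases beyond the 5′ end of Hadha and runs the other way.

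The bases before the start of Acadl, Ehhadh and Acadm are printed because of their levels. Those of Acadl and Ehhadh followed each other most closely across cell classes, while Acadm parted from them with Fabp6 in set 0. Among cells high in Fabp1, Ehhadh too was lower with more Fabp6 in both sets, in set 0 by less than Acadm, as given below. Each run is 250 bases long, ends 1 base before the RefSeq start (GRCm38.p6) and reads 5′ to 3′ on the strand of the gene, the minus strand in each. Capitals mark CG dinucleotides, the site that Tet enzymes act on once methylated. Their positions are chr1:66863310-66863559, chr16:21787835-21788084 and chr3:153944644-153944893.
Acadl: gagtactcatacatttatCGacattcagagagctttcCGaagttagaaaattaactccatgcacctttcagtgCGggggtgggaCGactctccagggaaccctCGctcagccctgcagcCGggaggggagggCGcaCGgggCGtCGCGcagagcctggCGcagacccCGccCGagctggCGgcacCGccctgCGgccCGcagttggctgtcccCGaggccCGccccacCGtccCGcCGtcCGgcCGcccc
Ehhadh: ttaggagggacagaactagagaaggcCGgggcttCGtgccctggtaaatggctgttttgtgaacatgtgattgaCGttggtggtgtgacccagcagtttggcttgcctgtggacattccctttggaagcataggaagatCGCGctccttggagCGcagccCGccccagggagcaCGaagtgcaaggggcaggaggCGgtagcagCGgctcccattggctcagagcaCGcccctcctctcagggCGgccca
Acadm: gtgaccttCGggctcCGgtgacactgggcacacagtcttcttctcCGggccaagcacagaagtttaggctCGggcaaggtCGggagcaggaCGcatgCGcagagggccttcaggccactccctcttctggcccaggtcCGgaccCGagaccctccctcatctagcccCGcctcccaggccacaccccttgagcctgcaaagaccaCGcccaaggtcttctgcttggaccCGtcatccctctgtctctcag
The Acadl run held 25 CG dinucleotides at 68% G and C. Those of Ehhadh and Acadm held 12 each, at 60.4% and 64%. Over 32851 RefSeq windows of this length the medians were 6 and 52.4%. All 8 genes had such a window, and their CG counts ran from 9 (Acadvl) to 27 (Ppara). The half-site AGGTCA of nuclear receptors was searched on both strands in windows of 250 bases before to 50 after the start. It was found for 3 of the 8, Cpt1a, Acadm and Acadvl, against 16.3% of all windows. In the Acadm run printed above it lies on the opposite strand, and its complement TGACCT begins at position -249 of the printed strand. Copies of it in tandem with 1 base between them (DR1, the arrangement bound by PPAR with RXR) were found for 0 of the 8 and 0.0396% of all windows, and for 0 of the 8 and 3.86% with up to 2 letters different. A DR1 match holds 2 half-sites, so these searches overlap. No methylation or binding was measured here.

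The table held 11871 cells, 5933 in set 0 and 5938 in set 1. Of these, 818 cells of set 1 carried a barcode that set 0 also carried, and their log profiles correlated with those of their namesakes at a median of 0.882, against 0.807 for pairs with different barcodes. They were left out of set 1, which leaves 5120 cells there and 11053 in all. Median unique molecular identifiers (UMIs) per cell, as recovered here, were 23657 in set 0 and 22374.5 in set 1. These are above the 10000 reads a cell that the protocol states, and the source of that gap was not tested. The namesakes were kept in set 0, with a median of 51368.5 UMIs against 22126 in its other cells. The cells left out of set 1 had a median of 13596.5. In the text a level is the mean over cells of UMIs per 10000 UMIs of the cell (CP10K), the scale of the deposited values, and levels of one gene are compared between cells, not between genes. There is 1 library a group and cells are not replicates, so no test was made. A gene was called when its levels differed at least 2-fold in one direction in each set. All 6 epithelial markers were found (summed 44.1 CP10K in set 0 and 44.7 in set 1), whereas summed endothelial markers were at most 0.011 and erythroid markers at most 0.175 CP10K in either set. Mesenchymal markers summed to 0.054 and 0.252 CP10K, and to 0.663 in cells of set 1 with Fabp1 below 40 against 0.038 in those above 100 CP10K. Immune markers summed to 1.74 and 0.964 CP10K, nearly all from Csf1r (1.71 and 0.952).

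Cells were first grouped by Fabp1, the liver-type fatty acid binding protein that enterocytes gain as they mature. Set 0 had 2094 cells below 40 CP10K, 485 from 40 to 100 and 3354 above 100, and set 1 had 1770, 564 and 2786. Immune markers summed to 1.06 and 2.19 CP10K in low and high cells of set 0, and Csf1r alone gave 1.01 and 2.17 of these. Summed enterocyte markers went from 193 CP10K in the low to 936 in the high cells of set 0, and from 173 to 856 in set 1. Every one of the 8 genes was higher in Fabp1-high than in Fabp1-low cells in both sets. The ratio differed among them, from 1.32-fold for Ppara to 2.68-fold for Ehhadh with both sets together. In the order of the log2 ratio the enzymes followed as Ehhadh 1.42, Acadl 0.99, Acadm 0.76, Cpt2 0.64, Cpt1a 0.60, Acadvl 0.59 and Hadha 0.51. In set 1 alone Cpt2 (0.81) and Cpt1a (0.80) stood above Acadm (0.77), and in set 0 they stood below it (0.49 and 0.48 against 0.76).

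Ppara, the receptor, was near the limit of what a cell's depth shows. Its level in Fabp1-low, middle and high cells was 0.116, 0.145 and 0.146 CP10K in set 0 and 0.104, 0.154 and 0.152 in set 1. The median cell had no Ppara UMI in any of these classes. From summed UMIs, the exact 95% Poisson interval was 0.106 to 0.124 per 10000 in low and 0.139 to 0.154 in high cells of set 0. The intervals of the low and high cells were apart in both sets, and the middle and high cells did not differ beyond counting error. Intervals here cover counting error only.

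The carnitine transferases both had most of their difference between the low and the middle cells. Cpt1a, which admits long chains to the mitochondrion, had levels of 0.405, 0.554 and 0.568 CP10K in low, middle and high cells of set 0 and of 0.268, 0.402 and 0.473 in set 1. The low cells of set 0 thus stood at the level of the middle cells of set 1. Mean Fabp6 differed between the low cells of the sets, at 33.7 CP10K in set 0 and 1.05 in set 1, and its part was not tested. Cpt2, which hands the chain back to coenzyme A, had levels of 0.858, 1.15 and 1.21 CP10K in set 0 and 0.805, 1.25 and 1.42 in set 1. Its low cells were alike in the sets, and its high cells were higher in set 1.

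Among the acyl-CoA dehydrogenases, Acadl and Acadm were higher still in the high than in the middle cells, where Acadvl differed little. Acadvl levels were 1.40, 1.87 and 1.95 CP10K in low, middle and high cells of set 0 and 1.40, 2.22 and 2.32 in set 1. Acadl levels were 3.10, 4.22 and 6.07 CP10K in set 0 and 3.11, 4.50 and 6.26 in set 1, close to each other in the sets at each step. Acadm levels were 0.843, 1.03 and 1.43 CP10K in set 0 and 1.06, 1.36 and 1.81 in set 1. In each of the 3 classes Acadm was higher in set 1.

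Single cells overlapped widely. The interquartile range of Acadl was 1.71 to 4.06 CP10K in Fabp1-low and 4.40 to 7.51 in Fabp1-high cells of set 0, and in set 1 these ranges were 1.77 to 4.22 and 4.51 to 7.83. The interquartile ranges of Acadl were thus apart, while its full ranges overlapped, since both classes held cells with none. For Acadm these ranges were 0.35 to 1.23 and 0.72 to 1.94 CP10K in set 0, and those overlapped.

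Hadha, which carries out hydration and the second dehydrogenation of long chains, had levels of 2.55, 3.18 and 3.48 CP10K in set 0 and 2.43, 3.22 and 3.65 in set 1. Its partner subunit Hadhb differed less, with 1.84 in low and 2.17 CP10K in high cells of set 0 and 2.40 and 2.93 in set 1. Ehhadh had levels of 0.118, 0.209 and 0.320 CP10K in set 0 and 0.129, 0.227 and 0.382 in set 1. In both sets the Ehhadh classes stood in the order of Fabp1, with a log2 ratio of high over low of 1.36 in set 0 and 1.49 in set 1.

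With the 2-fold rule, 1 of the 7 genes that reached a mean of 0.2 CP10K in either class was called, Ehhadh, where 4.04% of 5666 tested genes were called higher and 10.2% lower. Ehhadh reached that minimum only through its high cells, so it had to differ to enter, and with no minimum on the level it was still the 1 gene called. Acadl was just short of 2-fold in set 0 (log2 ratio 0.97) and just past it in set 1 (1.01), and it was called too once the shared barcodes were left out of both sets. With a pseudocount of 0.1, or a minimum of 1 CP10K, none was called. Without size, 34.8% of tested genes were higher in each set and 57% lower. The median log2 ratio was -0.17 over all tested genes.

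**Figure D1:**
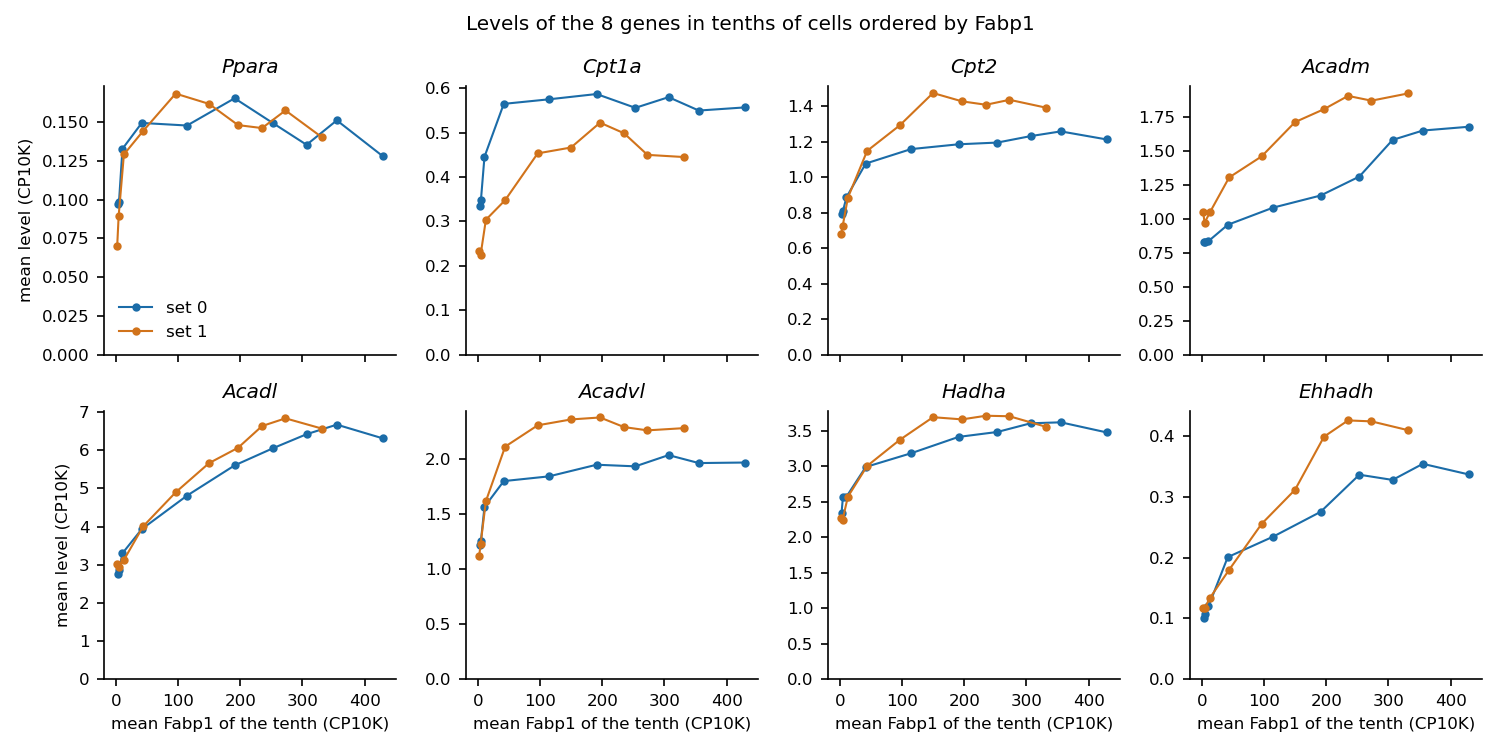
Mean level (CP10K, vertical axis) of each gene in deciles of the cells of set 0 (blue) and set 1 (orange), against the mean Fabp1 of the decile (horizontal axis, CP10K). Cpt1a of set 0 is nearly level from the fourth decile on (0.565 there and 0.557 in the last), while in set 1 it is highest in the seventh (0.522). Acadl continues to 6.67 and 6.84 in the ninth decile, and Acadm of set 0 is highest in the last decile (1.68).

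Deciles of cells ordered by Fabp1 showed where along Fabp1 each gene levelled off, a division added after the class levels were seen. In set 0, Cpt1a was at 0.334 CP10K in the first decile, 0.565 in the fourth and 0.557 in the last. Acadvl was at 1.21, 1.79 and 1.964 CP10K in the same deciles. Acadl was at 2.75 in the first, 3.93 in the fourth and 6.67 CP10K in the ninth decile, and at 6.31 in the last. In set 0 Acadl thus continued past the decile at which Cpt1a had levelled. In set 1 Cpt1a was at 0.348 CP10K in the fourth, 0.522 in the seventh and 0.445 in the last decile, and Acadl at 4.01, 6.07 and 6.57, so the levelling of Cpt1a came later there. Acadm of set 0 stood at 0.834 in the third, 1.17 in the sixth and 1.68 CP10K in the last decile. Ehhadh went from 0.101 CP10K in the first to 0.337 in the seventh decile of set 0, and from 0.118 to 0.399 in the seventh and 0.426 in the eighth of set 1.

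Other measures differed with Fabp1 as well. Median UMIs per cell were 19960 in low and 25625 in high cells of set 0, and 19681 and 24094 in set 1. The Fabp1-low cells also held more proliferating markers (7.25 against 1.45 CP10K summed in set 0, and 8.93 against 1.6 in set 1), and more goblet (8.98 against 0.972, and 6.80 against 0.479) and enteroendocrine (2.58 against 0.130, and 3.35 against 0.103) markers. Stem (1.19 against 0.055) and Paneth (1.05 against 0.076) markers of set 0 were likewise higher in Fabp1-low cells. The mean mitochondrial share was 6.35% in low and 7.86% in high cells of set 0, and 5.87% and 8.02% in set 1. Mean Fabp6 was 33.7 CP10K in low and 19.5 in high cells of set 0, and 1.05 and 2.61 in set 1. The part of other cell types in the differences was not tested. With depth equal, at 8000 UMIs a cell, the log2 ratios of the 8 genes kept their direction. In cells without a UMI of Mki67 or Top2a and with Fabp6 below 10, Acadl still had 2.89 in low and 6.20 CP10K in high cells of set 0, and 3.57 and 6.31 in set 1. Ehhadh was again the 1 gene called there (3.7% of tested genes were called higher and 5.61% lower).

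Dividing cells, taken as those with any UMI of Mki67 or Top2a, were then set against cells with none (1091 and 4842 cells in set 0, 973 and 4147 in set 1). The 7 enzymes were lower in the former in both sets, and Ppara had nearly the same level. Markers of other cell types differed as well, and their part was not tested. Summed goblet markers were at 6.45 CP10K in dividing and 3.25 in other cells of set 0 and at 5.44 and 2.02 in set 1, and Paneth markers at 1.24 and 0.233 and at 1.43 and 0.193. Enteroendocrine markers went the other way, at 0.199 and 1.18 CP10K in set 0 and 0.248 and 1.61 in set 1. Stem markers were at 1.83 and 0.156 CP10K in set 0 and mesenchymal markers at 0.817 and 0.120 in set 1, while enterocyte markers were at 248 and 717 in set 0. Ppara was at 0.136 with and 0.135 CP10K without such a UMI in set 0, and at 0.135 and 0.136 in set 1. Acadl was at 3.03 with and 5.29 CP10K without in set 0, and at 3.20 and 5.39 in set 1. Ehhadh was at 0.131 and 0.264 CP10K in set 0 and at 0.14 and 0.310 in set 1. The classes of Acadl and Ehhadh lay apart in the same way in each set. The log2 ratios of the others were between -0.29 (Acadvl, set 0) and -0.64 (Cpt1a, set 1). None of the 7 tested was called, with 3.85% of 5691 genes called lower and 8.1% called higher. By any size, 44% of tested genes were lower in each set and 49.9% higher. Ehhadh missed the 2-fold rule by set 0 alone (log2 ratio -0.96, and -1.10 in set 1), and without the shared barcodes in either set it was called lower, as it also was at 8000 UMIs a cell.

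The dividing cells were mostly Fabp1-low, so the contrast was repeated within Fabp1 classes, a step chosen after the data were seen. Among Fabp1-low cells (750 with and 1344 without a UMI in set 0, 674 and 1096 in set 1), Acadl was at 2.14 with and 3.63 CP10K without in set 0, and at 2.34 and 3.58 in set 1. Cpt1a was at 0.294 and 0.468 CP10K in set 0 and at 0.215 and 0.301 in set 1. Acadvl was closer, at 1.27 and 1.47 CP10K in set 0 and at 1.38 and 1.42 in set 1. Acadl and Cpt1a therefore differed more between dividing and other Fabp1-low cells than Acadvl did, in both sets. Mean Fabp6 differed between these cells as well, and its part was not tested. It was at 6.64 CP10K in dividing and 48.7 in other Fabp1-low cells of set 0, and at 0.537 and 1.36 in set 1. Ppara, under the minimum, was higher in dividing than in other Fabp1-low cells, with log2 ratios from 0.12 to 0.40 over the settings. In Fabp1-low cells 6 members reached the minimum, 0 were called, and 5.67% of tested genes were called lower and 5.31% higher. Among Fabp1-high cells, Cpt2 had nearly the same level with and without a UMI (1.214 and 1.211 CP10K in set 0, 1.43 and 1.42 in set 1), and Acadl was at 5.59 and 6.11 in set 0 and at 5.67 and 6.31 in set 1. In Fabp1-high cells 0 of the 7 tested were called, with 0.0395% of all genes called lower and 0.633% higher. A droplet that holds a dividing and an enterocyte cell would fall into this class, and its median of UMIs was higher (32517 against 25313.5 in set 0, 29094 against 23889 in set 1). Entry needed only 1 UMI of Mki67 or Top2a, so it also depended on depth. The mean of Mki67 plus Top2a in this class was 0.885 CP10K in set 0 and 0.849 in set 1, against 3.54 and 3.50 in dividing Fabp1-low cells. Doublets were not removed, and their part was not tested.

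**Figure D2:**
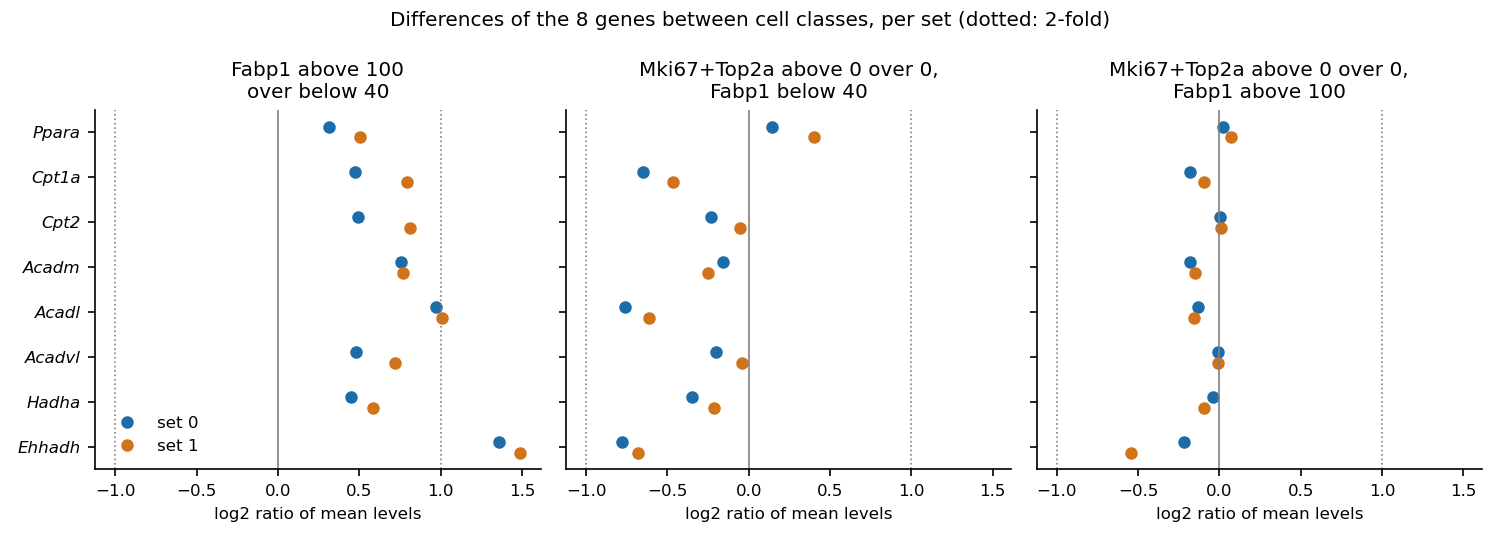
Log2 ratio of mean levels (horizontal axis) of each gene in set 0 (blue) and set 1 (orange) for Fabp1-high over Fabp1-low cells and for cells with over cells without a Mki67 or Top2a UMI, within Fabp1-low and within Fabp1-high cells. Dotted lines mark 2-fold, which Ehhadh passes in the first panel in both sets, at 1.36 and 1.49.

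Fabp6, the bile acid binding protein of the ileum, was used to follow position along the gut. Above 50 CP10K there were 1108 cells in set 0 and 27 in set 1, so calls were made in set 0 alone. Acadm was the enzyme with the lowest ratio, and Ppara, under the minimum, was lower by nearly as much. In set 0 it was at 1.31 CP10K in 4108 cells with Fabp6 below 10 and at 0.875 in those above 50, a log2 ratio of -0.58. Cpt1a went the other way, from 0.480 to 0.591 CP10K, while Acadl (4.80 and 5.11), Cpt2 (1.09 and 1.06) and Hadha (3.15 and 3.02) had ratios near 1. Acadvl was at 1.83 and 1.54 CP10K. Ppara was at 0.146 and 0.102 CP10K in set 0, a log2 ratio of -0.49 that ran from -0.73 to -0.29 over the alternatives. Of the 7 tested 0 were called, with 3.53% of 5409 genes called higher and 5.1% lower. By any size, 3 were higher and 4 lower, where 53.9% and 46.1% of all tested genes were. Ehhadh (0.238 and 0.242 CP10K) turned its direction with summed UMIs, with thinning and with all cells of set 1 kept.

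In set 0 Fabp6-high cells had a smaller share of Fabp1-high cells among them, while all 27 of set 1 were Fabp1-high. The same classes were therefore taken within Fabp1-high cells, also after the data were seen. There, set 0 had 2546 cells with Fabp6 below 10, 363 from 10 to 50 and 445 above 50, and set 1 had 2588, 171 and 27. Acadm was at 1.57, 1.07 and 0.930 CP10K across these in set 0 and at 1.84, 1.52 and 1.45 in set 1. Its levels stood in the reverse order of Fabp6 in both sets, and the last value of set 1 is from 27 cells. The exact 95% interval of Acadm was 1.54 to 1.59 UMIs per 10000 at the lowest and 0.915 to 1.02 at the highest Fabp6 in set 0. Acadvl was at 2.05, 1.66 and 1.62 CP10K in set 0 and at 2.34, 1.95 and 2.15 in set 1. Acadl was at 6.16, 5.97 and 5.69 CP10K in set 0 and at 6.26, 6.28 and 5.91 in set 1. Acadl therefore differed far less with Fabp6 than Acadm, although both differed with Fabp1. Hadha was at 3.58, 3.26 and 3.04 CP10K in set 0 and at 3.64, 3.69 and 3.68 in set 1, so that it was lower with Fabp6 in set 0 only. Cpt1a had 0.564, 0.595 and 0.566 CP10K in set 0, with no order. Ehhadh was at 0.327, 0.306 and 0.290 CP10K in set 0 and at 0.386, 0.328 and 0.333 in set 1. Ppara was at 0.153, 0.132 and 0.119 CP10K in set 0 and at 0.154, 0.130 and 0.093 in set 1, and its exact intervals at the lowest and highest Fabp6 overlapped in both sets. The 27 cells of set 1 had a mean mitochondrial share of 10.5%, against 7.53% in the 445 of set 0. Here 0 of the 7 tested were called for the highest over the lowest Fabp6, with 2.04% of 5096 genes called higher and 1.71% lower, and 6 were lower and 1 higher by any size where 42.1% and 57.9% of all were.

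**Figure D3:**
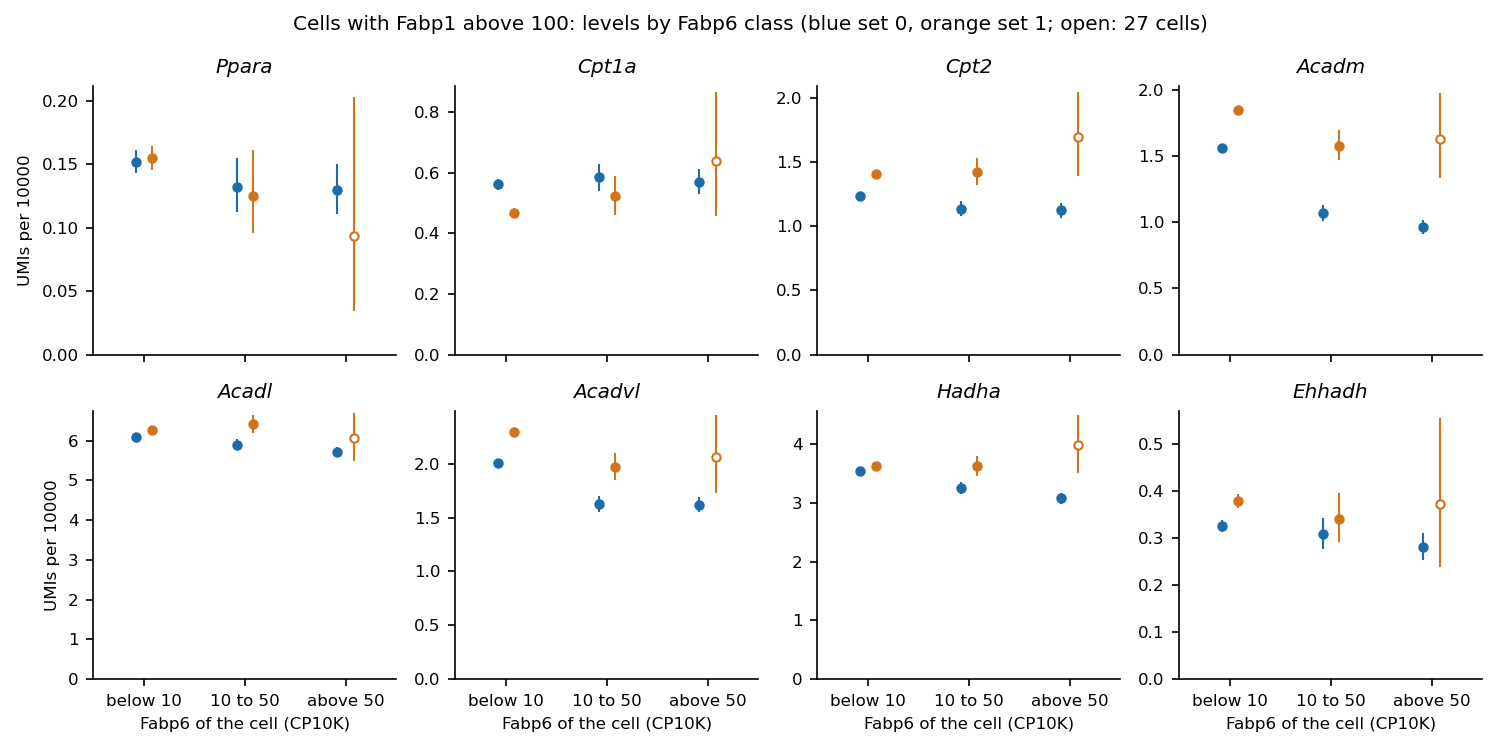
UMIs per 10000 of each gene (vertical axis) in cells with Fabp1 above 100, by Fabp6 class (horizontal axis, CP10K), in set 0 (blue) and set 1 (orange). Bars are exact 95% Poisson intervals and open points rest on 27 cells; Acadm of set 0 is lower in each further class, and Acadl is nearly level.

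Among Fabp1-low cells with no Mki67 or Top2a UMI, where set 1 held too few cells with high Fabp6, the picture in set 0 was another one. Acadl was at 2.89 CP10K in 641 cells with Fabp6 below 10 and at 4.59 in 446 cells above 50. Cpt1a was at 0.380 and 0.582 CP10K and Ehhadh at 0.102 and 0.179, also higher with Fabp6. Acadm was at 0.918 and 0.833 CP10K and Acadvl at 1.45 and 1.48, close to level. Of the 6 tested 0 were called, with 5.16% of genes called higher and 8.23% lower. Taken over all cells of set 0, not these classes alone, summed liver-type markers were at 12.7 CP10K with Fabp6 below 10 and 50.1 above 50. The highest single marker was Cps1 (5.46) below 10 and Ttr (22.9) above 50. The part of these markers in the differences was not tested.

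Between the sets, Cpt1a and Acadm differed in opposite directions at every matched class. The classes were matched by their limits only, since Fabp6 itself differed between the sets. Its mean over all cells was 27.5 CP10K in set 0 and 1.90 in set 1, and 69.2% and 95.0% of cells lay below 10. Summed liver-type markers in the cells below 10 were at 12.7 CP10K in set 0 and 21.1 in set 1, and their part was not tested. Over all cells Cpt1a was at 0.509 CP10K in set 0 and 0.394 in set 1, and Acadm at 1.19 and 1.503. Cpt1a was thus the 1 enzyme lower in set 1 and Acadm the one with the largest ratio towards set 1. In cells with Fabp1 above 100, Fabp6 below 10 and no Mki67 or Top2a UMI (2362 and 2412 cells), Cpt1a was at 0.571 and 0.470 CP10K and Acadm at 1.59 and 1.85. With Fabp1 below 40 instead (641 and 1061 cells), Cpt1a was at 0.380 and 0.299 and Acadm at 0.918 and 1.13. Acadl was at 2.89 and 3.57 CP10K in such Fabp1-low cells and at 6.20 and 6.31 in the Fabp1-high ones, and Hadha was within 0.03 log2 units in both of these classes. In the same Fabp1-low cells Ppara was at 0.130 CP10K in set 0 and 0.093 in set 1. None of the 7 was called over all cells, with 0.662% of 5289 genes called higher in set 1 and 1.29% lower, and 60.4% were higher and 39.6% lower in set 1 by any size. No label says what a set is, so animal, library and any genotype cannot be told apart here.

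The other genes of the pathway came from 6 lists, of which 93 genes were in the table and 64 reached the minimum in the Fabp1 contrast. Of these 64, 10 were called higher and 2 lower in Fabp1-high cells, with a median log2 ratio of 0.45, where 4.04% of all tested genes were called higher and 10.2% lower. The counts of single lists that follow are few and stand against the same shares. Among genes of activation and entry, 2 of 9 were called higher, Acsl5, which joins fatty acids to coenzyme A (6.04 to 13.4 CP10K in set 0, 4.20 to 13.0 in set 1), and Crat, the carnitine acetyltransferase. Slc25a20, the carnitine carrier between Cpt1a and Cpt2, was not called, at 0.558 and 0.722 CP10K in set 0 and 0.526 and 0.810 in set 1. Dbi, the acyl-CoA binding protein, was at 20.7 and 35.8 CP10K in set 0 and at 18.0 and 30.7 in set 1.

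Of 16 mitochondrial genes 1 was called, Acaa2, a thiolase (6.12 to 13.2 CP10K in set 0, 7.76 to 18.1 in set 1). Hsd17b10, a dehydrogenase of short and branched chains, was lower, at 1.39 and 0.660 CP10K in set 0 and 1.89 and 1.08 in set 1, short of the rule in set 1. Of 14 peroxisomal genes 3 were called higher, and 0 lower. Scp2, the sterol carrier and thiolase, was at 3.27 and 10.6 CP10K in set 0 and at 3.58 and 11.8 in set 1. Another was Hsd17b4, the D-bifunctional enzyme beside Ehhadh (0.523 and 1.33 CP10K in set 0).

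Of 8 genes of ketone synthesis and use, 1 was called higher and 2 lower in Fabp1-high cells. Bdh1, which reduces acetoacetate, was at 1.57 and 1.92 CP10K in low and high cells of set 0 and at 1.67 and 2.25 in set 1. Acat1, the acetoacetyl-CoA thiolase, was called higher (0.985 to 2.21 CP10K in set 0, 1.52 to 3.15 in set 1). Oxct1 and Aacs, which activate ketone bodies for use, were the 2 called lower. Oxct1 was at 0.458 and 0.156 CP10K in set 0 and at 0.540 and 0.157 in set 1, and both genes reached the minimum only through the low cells.

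Of 11 receptors and partners of Ppara, 1 was called, Creb3l3, a membrane-bound factor of fasting liver and gut (2.18 to 6.89 CP10K in set 0, 2.13 to 7.49 in set 1). Hnf4a was at 1.17 and 0.896 CP10K in set 0 and at 0.954 and 0.943 in set 1, and Rxra, the partner of Ppara on DNA, at 0.205 and 0.162 and at 0.209 and 0.189. Of 6 other known targets, 2 were called higher, Cd36, a fatty acid receptor (0.046 to 0.722 CP10K in set 0, 0.045 to 0.764 in set 1), and Cidec, a lipid droplet protein. Cd36 reached the minimum only through the high cells. Fads2, a desaturase, was at 1.33 and 0.705 CP10K in set 0 and at 1.52 and 1.23 in set 1.

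**Figure D4:**
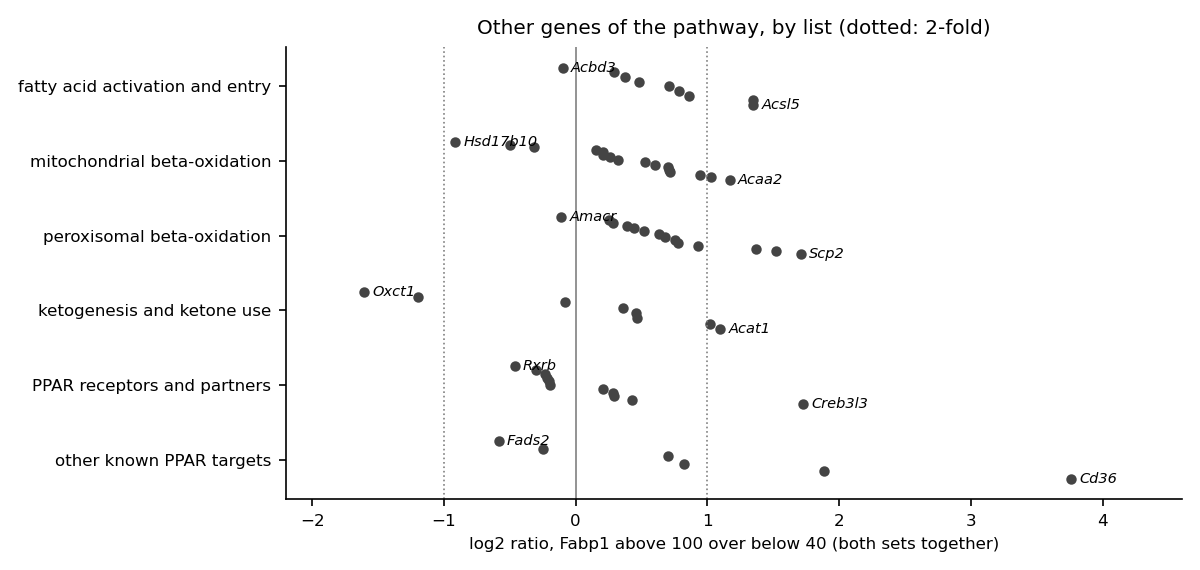
Log2 ratio of Fabp1-high over Fabp1-low cells (horizontal axis, both sets together) for the 64 other genes tested, by list, with the lowest and highest gene of each list named. Dotted lines mark 2-fold; Cd36 stands farthest to the right at 3.76, and Oxct1 farthest to the left at -1.60.

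In dividing cells 5 of the 62 tested pathway genes were called lower and 0 higher, where 3.85% of all tested genes were called lower and 8.1% higher. Among these were Acsl5, Creb3l3, Cidec and Cd36, each also called higher with Fabp1. Cd36 reached the minimum only through the cells that were not dividing. Hsd17b10 (1.54 with and 0.822 CP10K without a Mki67 or Top2a UMI in set 0), Oxct1 (0.387 and 0.242), Aacs (0.210 and 0.142) and Ucp2, an uncoupling protein (1.43 and 0.880), had the largest ratios towards dividing cells. With Fabp6, Slc22a5, the plasma membrane carnitine transporter, was the 1 of 60 tested called higher (0.123 to 0.302 CP10K in set 0, and 0.090 to 0.266 in set 1 with its 27 cells), and it reached the minimum only there. Acat1 (2.02 to 0.919 CP10K) and Ucp2 (1.20 to 0.380) were the 2 called lower in set 0. Both counts are near or under the shares of all tested genes, 3.53% higher and 5.1% lower, so they say nothing particular of these lists. Acadsb (0.126 and 0.249), the dehydrogenase of short branched chains, Acox3 (0.174 and 0.296), a peroxisomal oxidase, and Slc27a4 (1.12 and 1.81 CP10K), a fatty acid transporter, were next towards high Fabp6 and were not called. Acaa2 was at 11.4 and 7.92 CP10K and Dbi at 34.2 and 18.3, lower with Fabp6 in set 0 and not called.

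Likeness was taken as Pearson's r of log2 levels over 7 classes by Fabp1, Fabp6 and dividing state with at least 50 cells in each set. This gives 14 points that share libraries and a common total. All classes had Fabp6 below 10, except that with Fabp1 above 100 and Fabp6 from 10 to 50. None had Fabp6 above 50, so r covers mainly Fabp1 and dividing state and little of the range of Fabp6. Among the 8 genes, Acadl and Ehhadh were the most alike (r = 0.99), and Ppara with Acadl the least (r = 0.23). Of 5057 genes, those most like Acadl were Apoa4 (0.996), Dgat2 (0.995) and Dnah2 (0.994), and for Ehhadh they were Acadl (0.99), Gsta2 (0.99) and Mdh1 (0.98). Acadm was followed most closely by Acaa2 (0.96), Suclg1 (0.96) and Acot1 (0.95). The closest to Cpt1a was Ptprh (0.97), followed by 4931406C07Rik (0.96) and Slc37a4 (0.95), and to Cpt2 Cdip1 (0.96), Etfdh (0.96) and Dhrs1 (0.95). For Acadvl they were Slc7a8 (0.97), Prpsap1 (0.96) and Nags (0.96). Hadha was most like Paqr7 (0.99), Hnf4aos (0.98), which is antisense to Hnf4a and so uncertain, and Pgrmc2 (0.98), and less like its own partner Hadhb (0.52). For Ppara the closest were Skil (0.85), Acot8 (0.84) and Mkks (0.84).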

How the data were processed

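Libraries were made with 10x Genomics 3' chemistry from methanol-fixed sorted cells, per the labels' protocols. Salmon 0.14.1 with alevin, Scanpy 1.6.0 and the builds GRCm38 and mm10 are listed in the submitters' processing notes. The authors deposited 1 table whose values are a signal scaled to 10000 per cell; any filter used before it is not given in the sources used here. The genes and lists were chosen with earlier results of these data known. A cell's most frequent non-zero value was taken as 1 UMI; 94.9% of values in the median cell (84.3% in the lowest) were whole multiples within 0.01. Recovered totals ran from 1152.5 to 250630 UMIs. Log2 ratios have 0.01 CP10K added to both levels, which understates low genes. Tested genes had a mean of at least 0.2 CP10K in either class, and classes at least 50 cells. Named were all 8 genes, per contrast the 4 largest and 4 smallest ratios of the lists, 10 further genes fixed by name, and 3 genes each by likeness; Crat, Acaa2, Hsd17b4 and other list genes named beside a count were chosen after their values were seen. Acsl6, Abcd2, Rxrg, Cyp4a14, Fgf21 and Ucp3 were not analysed here. Some genes of these lists are counted but not reported by name here. No doublet caller was run. Alternatives were shared barcodes, single sets, summed UMIs, another total, thinning to 8000 UMIs, cell filters, pseudocount, minimum and class limits. Python 3.11.15, numpy 2.4.6, scipy 1.17.1 and pandas 2.3.3 were used.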

Additional observations from a re-analysis of the deposited data

How the results depend on the processing

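Of the member ratios over settings, 607 values moved by less than their counting error and 129 moved further; none that was called changed sign. With a minimum of 1 CP10K, 0 members were called higher with Fabp1, pathway genes called were 6 higher and 0 lower with Fabp1, 0 higher with Fabp6 and 2 lower in dividing cells, and all genes called numbered 261 (Fabp1), 153 (Fabp6), 224 (dividing) and 30 (sets). There 1 member was higher with Fabp6 by any size and 0 lower in set 1. With no minimum these all-gene counts were 1782, 1227, 1278 and 277, and pathway calls were 4 lower with Fabp1, 3 higher and 6 lower with Fabp6, and 1 higher in dividing cells. With a pseudocount of 0.1 the all-gene counts were 515, 288, 416 and 60, with 0 members higher by Fabp1, and pathway calls of 1 lower with Fabp1, 0 higher with Fabp6 and 3 lower in dividing cells. As reported, the counts were 807, 467, 680 and 103. Members called higher with Fabp1 were 2 (Ehhadh and Acadl) without shared barcodes in both sets, in set 1 alone, with the stricter cell filter and with tertiles of Fabp1. Members called lower in dividing cells were 1 (Ehhadh) without shared barcodes in both sets, in set 1 alone, at 8000 UMIs a cell, without the 5% of cells with most UMIs, and with at least 2 UMIs of Mki67 and Top2a. Pathway genes lower in dividing cells were 14 at 8000 UMIs, 8 with the stricter filter, 9 without the 5% of cells with most UMIs and 14 at 2 or more UMIs. All genes called there were 1042 in set 0 alone, 1048 at 8000 UMIs and 1207 at 2 or more UMIs. With Fabp6, pathway calls were 2 higher at 8000 UMIs and 1 lower with all cells of set 1. The causes were not tested. Small ratios that turned sign under some setting were those of Ppara (dividing), Cpt2 and Ehhadh (Fabp6) and Cpt1a (Fabp6 within Fabp1-high cells). Cpt2, Acadvl and Ppara also did so for dividing within Fabp1-high cells. Between the sets, Ppara and Acadl did so in cells with Fabp1 above 100, Fabp6 below 10 and no Mki67 or Top2a UMI. Over all cells, the ratios of Ppara and Acadl between the sets kept their sign. A total without mitochondrial, ribosomal protein and haemoglobin genes moved the median of all genes with Fabp1 from -0.17 to -0.31. Tertiles of Fabp6, and Fabp6 in set 1 alone (27 cells), were not run. No paired analysis was possible because each group has 1 library and no cell is tied to it. Depth limits the low genes: the median Fabp1-low cell had no UMI of Ppara or Ehhadh in either set, nor of Cpt1a in set 1.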
